A study of Mus musculus with 30 samples.

Results

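The 32 genes described here are the Wnt ligands, receptors, transducers and nuclear factors of the beta-catenin pathway, taken by gene symbol from a count table of 39253 mouse genes. The list was made by name: 6 ligands, 2 secreted inhibitors, 8 receptors, 2 ubiquitin ligases that act on receptors, 4 proteins that relay the signal at the membrane, 5 genes of the destruction complex including beta-catenin itself, and 5 nuclear factors. All 32 passed the filter on low counts and were tested among 13008 genes. The RNA came from 4T1, a mouse mammary carcinoma line, cultured for 48 or 72 h with small extracellular vesicles (sEVs, membrane particles that cells shed) from primary BALB/c neutrophils. The neutrophils had been held for 48 h in DMSO, the vehicle, or in 27-hydroxycholesterol (27HC, at 10 µM), a cholesterol metabolite. DMSO-sEV cells were sampled as attached cells, and 27HC-sEV cells as 2 fractions, adherent and non-adherent, each at 48 and 72 h. All groups received neutrophil vesicles, and no cells without vesicles were sampled. Each of the 6 groups had 5 libraries, except non-adherent cells at 72 h, which had 4.

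Wnt proteins are secreted lipid-bearing ligands that bring a Frizzled receptor together with a co-receptor, LRP5 or LRP6. Without a ligand, a complex of APC, AXIN, GSK3B and casein kinase 1 alpha marks beta-catenin for degradation, and with a ligand Dishevelled proteins recruit that complex to the membrane, so that beta-catenin accumulates and binds TCF and LEF factors on DNA. Several genes that this step induces, such as Notum, Znrf3, Rnf43 and Axin2, code for inhibitors of the pathway. In the mammary gland Wnt signals are known for the upkeep of basal stem cells, and in mammary tumours for growth and invasion. Transcript levels do not measure the amount or location of beta-catenin protein.

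Levels differed widely between members. Per kilobase of the longest annotated transcript, the mean level over all libraries was highest for Ctnnb1 (Entrez 12387), which codes for beta-catenin, at 271 CPM per kb, where CPM is the count of a gene scaled to library size. Csnk1a1, casein kinase 1 alpha, stood next at 89.0 CPM per kb, followed by the ligand Wnt7b at 38.4 and the receptor Fzd6 at 29.9 CPM per kb. Among the ligands Wnt7a had 14.2 and Wnt10a 3.84 CPM per kb, while Wnt10b (0.927), Wnt11 (0.19) and Wnt5b (0.165 CPM per kb) were low. Lrp5 and Lrp6 had 12.8 and 9.23 CPM per kb, and Fzd5 had 2.86. Notum, a secreted enzyme that removes the lipid from Wnt proteins, had 1.01 and the nuclear factor Lef1 0.872 CPM per kb. Wnt5b rested on 1 to 14 reads per library, Wnt11 on 4 to 29 and Notum on 3 to 134, so their values carry a large counting error.

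A wider list of 137 pathway genes put the members in context: 105 are not members, and 44 of these had too few reads to test, with at most 18 reads in any library. Axin2, a widely used reporter of beta-catenin activity, was among them, at 0 reads in 18 of the 29 libraries and at most 2 in the others. Lgr5, Nkd1, Sp5 and Dkk1, further known targets, had 0 reads in every library, as did the ligands Wnt2 and Wnt3a.

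Of the 32 members, 20 had a promoter in the RefSeq table used here (build GRCm38.p6, windows of 300 bases, 250 before and 50 after a listed start, 30 windows). The letters CTTTG followed by AT, AA, TT or TA, to which TCF and LEF factors are known to bind, were searched on both strands. They occurred in 5 of the 30 member windows (16.7%), those of Fzd7, Lef1, Wnt5b, Wnt11 and Tcf7l2, and in 5544 of all 32851 windows (16.9%). A match is a description of the letters and not a shown binding site, and no match speaks only for this window. Shown 5′ to 3′ are the receptors Fzd5 (chr1:64737701-64738000, minus strand) and Fzd7 (chr1:59481897-59482196, plus strand), which moved in opposite directions at 48 h and the same way at 72 h. Lef1 (the fourth of 4 listed starts, chosen because it holds the letters, chr3:131156044-131156343, plus strand) and the ligand Wnt7a (chr6:91411304-91411603, minus strand) follow. These 2 members differed in opposite directions between non-adherent and adherent cells at 72 h. The last 30 bases of the window occurred in 0 annotated GENCODE M21 transcripts of Fzd7 and of Lef1, 2 of Fzd5 and 1 of Wnt7a. Capitals mark the searched letters, read as their reverse complement on the strand printed; Fzd5 and Wnt7a have none.
Fzd5: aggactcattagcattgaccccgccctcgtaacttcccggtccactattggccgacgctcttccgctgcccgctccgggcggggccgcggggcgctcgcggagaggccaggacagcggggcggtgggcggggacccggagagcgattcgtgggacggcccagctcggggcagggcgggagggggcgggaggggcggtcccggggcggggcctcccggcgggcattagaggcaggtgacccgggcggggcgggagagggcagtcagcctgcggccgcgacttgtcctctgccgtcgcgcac
Fzd7: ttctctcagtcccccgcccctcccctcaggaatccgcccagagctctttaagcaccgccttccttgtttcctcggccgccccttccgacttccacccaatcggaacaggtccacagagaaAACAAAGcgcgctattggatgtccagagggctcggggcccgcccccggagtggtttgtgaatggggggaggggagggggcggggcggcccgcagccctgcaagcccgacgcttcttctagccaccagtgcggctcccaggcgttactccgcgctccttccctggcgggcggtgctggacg
Lef1: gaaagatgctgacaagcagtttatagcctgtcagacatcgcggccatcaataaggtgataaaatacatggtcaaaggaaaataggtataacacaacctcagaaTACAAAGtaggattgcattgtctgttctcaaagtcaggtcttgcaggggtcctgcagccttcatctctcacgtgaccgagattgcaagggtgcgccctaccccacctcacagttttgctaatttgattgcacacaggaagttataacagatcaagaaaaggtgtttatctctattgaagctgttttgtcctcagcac
Wnt7a: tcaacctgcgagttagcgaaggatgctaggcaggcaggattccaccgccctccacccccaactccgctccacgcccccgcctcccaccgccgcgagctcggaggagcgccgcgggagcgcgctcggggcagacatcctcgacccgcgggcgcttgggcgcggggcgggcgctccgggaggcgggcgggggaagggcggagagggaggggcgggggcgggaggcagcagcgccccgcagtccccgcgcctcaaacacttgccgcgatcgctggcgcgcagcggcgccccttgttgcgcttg

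Library totals ran from 18.8 to 31.4 M estimated counts. In DMSO-sEV cells replicates 1 to 3 stood apart from 4 and 5 in the TMM scaling factor, at 72 h (0.845 to 0.899 against 0.998 and 1.001) and less so at 48 h (0.958 to 0.968 against 1.007 and 1.013). Some of the results that rest on these groups are also given with replicates 1 to 3 or 4 and 5 alone. A summed list of 8 epithelial markers, 6 of them tested and Krt5 at 0 everywhere, ran from 3312 to 4218 CPM in DMSO-sEV cells at 72 h, 2429 to 2737 CPM in adherent and 2163 to 2328 CPM in non-adherent 27HC-sEV cells. Of 12 neutrophil markers, 1 was tested and 4 were at 0 everywhere, among them the defining Ly6g and Csf3r. At 72 h the 12 summed to 0.311 to 0.982 CPM in DMSO-sEV, 1.34 to 1.91 CPM in adherent and 1.48 to 1.97 CPM in non-adherent 27HC-sEV cells. At 48 h they summed to 0.0946 to 0.527, 0.159 to 0.895 and 0.318 to 0.761 CPM in the same order. The 7 macrophage markers summed to 1.92 to 4.26 CPM in DMSO-sEV and 10.3 to 13.3 CPM in adherent 27HC-sEV cells at 72 h, and to 2.74 to 3.88 and 6.32 to 9.28 CPM at 48 h, with Adgre1, C1qa and C1qb at 0 everywhere. None of 6 leukocyte and 5 endothelial markers was tested, and 7 fibroblast markers (4 tested) summed to 26.0 to 53.5 CPM. The part of these marker differences in the results was not tested, and in such bulk RNA fewer cells of a type and less RNA per cell cannot be told apart.

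Attached cells at 48 h were compared between vesicles of 27HC-exposed and of vehicle-exposed neutrophils. The 27HC-sEV cells here are the adherent fraction alone, and no non-adherent DMSO-sEV cells were sampled. An effect of the vesicles and a selection of cells by attachment cannot be told apart in this comparison at either time. Notum and Lef1 were higher in 27HC-sEV cells, the Dishevelled genes Dvl1, Dvl2 and Dvl3 rose, and Wnt7b and the receptors Fzd1, Fzd2 and Fzd7 fell. By edgeR's quasi-likelihood test with Benjamini-Hochberg adjustment over all 13008 genes and a threshold of 0.05, which serves for every call below, 7 members rose and 6 fell. Among all genes tested 44.0% were called, 21.3% higher and 22.7% lower, and the members' share of 40.6% lay near that background. The median log2 fold change was -0.0425 over the members and -0.00151 over all genes. With offsets for transcript length and GC content the split was 7 higher and 10 lower, with Lrp5, Lrp6, Wnt7a and Znrf3 added. With DMSO replicates 1 to 3 alone it was 9 and 9, with Fzd6, Rnf43, Wnt7a, Gsk3b and Bcl9 added. With DMSO replicates 4 and 5 alone it was 5 and 6, without Fzd1, Fzd5, Fzd7, Sfrp1 and Dvl3 and with Apc, Tcf7 and Tcf7l2 added.

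At 72 h the same comparison gave a different balance. Of the 32 members 18 rose and 2 fell, while among all genes 65.3% were called, 32.0% higher and 33.4% lower. The median log2 fold change was 0.326 over the members and 0.00152 over all genes. Receptors and co-receptors rose together: 6 of 8 passed (Fzd5, Fzd6, Fzd7, Lrp5, Lrp6 and Ror1), and Fzd1 (0.21) and Fzd2 (0.08 on the log2 scale) did not. With DMSO replicates 1 to 3 alone 21 members were higher and 1 lower, without Tcf7l2 and with Wnt7b, Dvl2 and Gsk3b added. With replicates 4 and 5 alone 15 were higher and 2 lower, without Apc, Lef1, Wnt10b and Bcl9 and with Nkd2 added. With length and GC offsets 15 members were higher and 5 lower. That setting kept 15 of the 20 calls, lost Apc, Rnf43, Tcf7l2, Bcl9 and Csnk1a1, and added Wnt7b, Fzd2, Axin1, Dvl2 and Tcf7l1 as lower. Under the offsets the rises of Wnt10a (0.36), Fzd7 (0.28) and Dvl3 (0.24 on the log2 scale) still passed and were smaller than the values given below.

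**Figure D1:**
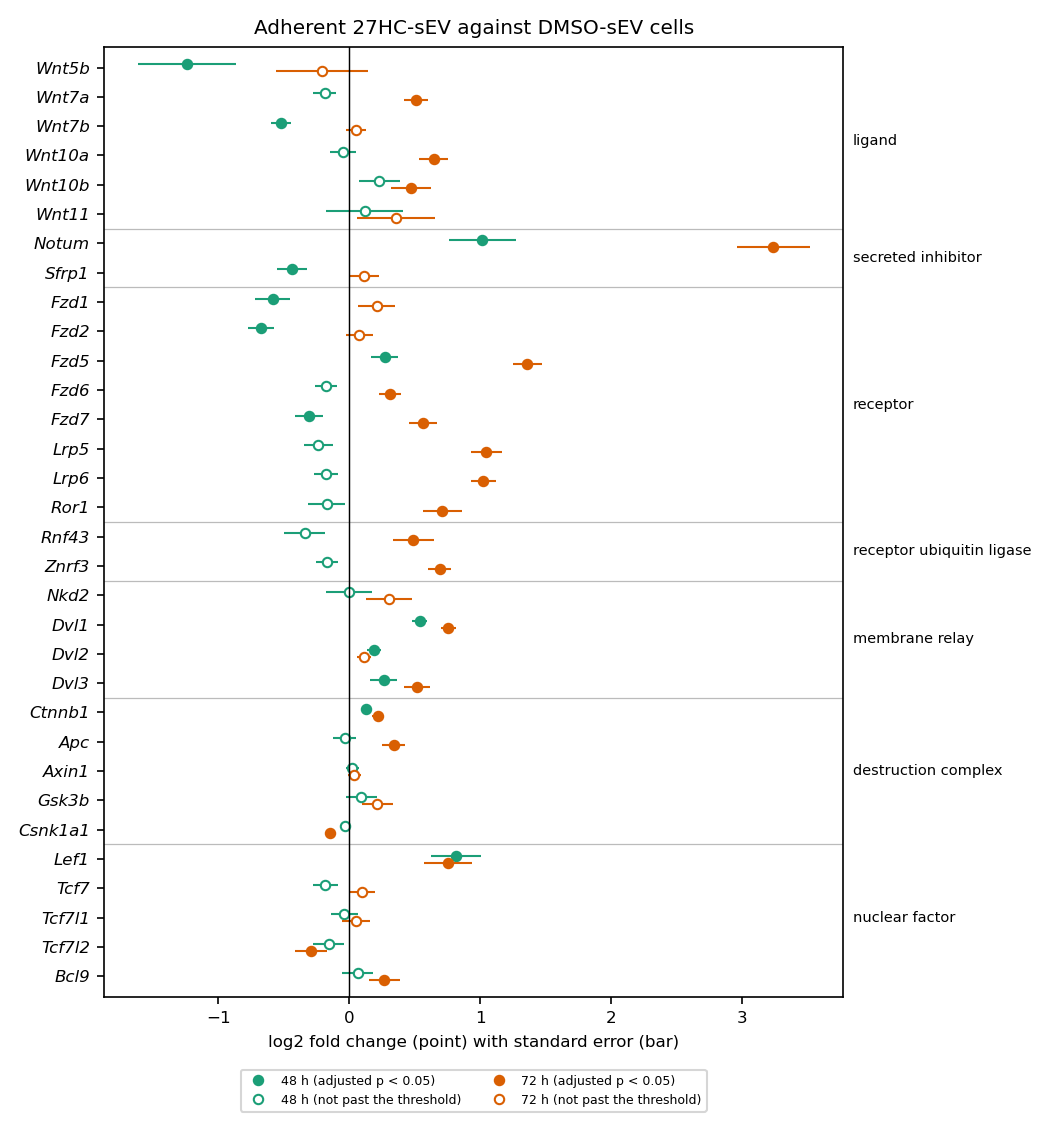
Log2 fold change (x axis) of each of the 32 members (y axis, grouped by role) in adherent 27HC-sEV against DMSO-sEV cells at 48 h (green) and 72 h (orange), with bars for the standard error and filled points for adjusted p under 0.05. At 72 h 18 members lie to the right of 0 and pass, while at 48 h 7 rise and 6 fall.

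Among the ligands, none of 6 rose and 2 fell at 48 h, and 3 rose and 0 fell at 72 h. Wnt7b (Entrez 22422), a ligand made by mammary luminal epithelium, fell at 48 h from 160 CPM (n = 5, SD 3.88) to 111 CPM (n = 5, SD 8.43). Its groups did not overlap, with a log2 difference of -0.52 (SE 0.0761, edgeR adjusted p = 1.91e-06). At 72 h it stood at 113 CPM (n = 5, SD 13.4) in DMSO-sEV and 117 CPM (n = 5, SD 15.1) in 27HC-sEV cells and did not pass. With the offsets Wnt7b was lower by 0.30 at 72 h (adjusted p = 1.36e-05). Wnt7a (Entrez 22421), its close relative, did not pass at 48 h and rose at 72 h from 38.8 CPM (n = 5, SD 4.29) to 55.3 CPM (n = 5, SD 6.45), without overlap. Its log2 fold change was 0.51 (SE 0.0893, adjusted p = 1.49e-05), or 0.29 with the offsets. Wnt10a rose by 0.65 (SE 0.109, adjusted p = 9.09e-06) and Wnt10b by 0.47 (SE 0.154, adjusted p = 0.00847) at 72 h. Both are ligands of the beta-catenin branch, and the Wnt10b call ended with DMSO replicates 4 and 5 alone (adjusted p = 0.0751).

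Wnt5b (Entrez 22419), a ligand mostly tied to signalling without beta-catenin, had 0.461, 0.425, 0.607, 0.615 and 0.587 CPM in the DMSO-sEV replicates 1 to 5 at 48 h. In adherent 27HC-sEV cells at 48 h it had 0.0825, 0.527, 0.166, 0.202 and 0.199 CPM. Replicate 2 lay within the DMSO-sEV range and the other 4 lay below it. The log2 fold change was -1.24 (SE 0.373, adjusted p = 0.00768), on 2 to 10 reads per library in 27HC-sEV cells. At 72 h Wnt5b had 0.365, 0.687, 0.368, 0.338 and 0.489 CPM under DMSO-sEVs and 0.241, 0.371, 0.447, 0.404 and 0.501 CPM under 27HC-sEVs, and these ranges overlapped. Non-adherent cells had 0.278, 0.309, 0.396, 0.321 and 0.592 CPM at 48 h and 0.463, 0.427, 0.394 and 0.0504 CPM at 72 h. Neither comparison of non-adherent with adherent cells was called. Wnt11, also low, was at 0.721 CPM (n = 5, SD 0.182) under DMSO-sEVs and 0.767 CPM (n = 5, SD 0.308) under 27HC-sEVs at 48 h, with no call at either time.

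Notum (Entrez 77583) had the largest rise of any member at 72 h and, against all 5 DMSO-sEV libraries, at 48 h. At 48 h its levels were 0.955, 0.797, 0.824, 0.331 and 0.489 CPM in DMSO-sEV replicates 1 to 5 and 1.94, 1.21, 1.5, 1.17 and 1.23 CPM in adherent 27HC-sEV cells. Every 27HC-sEV library lay above every DMSO-sEV library, a 2.03-fold difference (log2 fold change 1.02, SE 0.257, adjusted p = 0.00183). DMSO replicates 1 to 3 were the higher ones, and the log2 fold change was 0.70 against them, where that of Lef1 was 0.96, and 1.79 against replicates 4 and 5. At 72 h DMSO-sEV cells had 0.157, 0.442, 0.526, 0.188 and 0.267 CPM, from 3 to 10 reads, and adherent 27HC-sEV cells 3.55, 2.83, 3.66, 2.79 and 1.91 CPM. The groups were far apart, 9.46-fold (log2 fold change 3.24, SE 0.277, adjusted p = 5.99e-11). The value was 3.10 with the offsets, 2.96 against the first 3 DMSO replicates and 3.71 against replicates 4 and 5. Sfrp1, a secreted decoy that binds Wnt proteins, fell at 48 h by 0.44 (SE 0.114, adjusted p = 0.00228) and had a value of 0.11 at 72 h without a call. Its 48 h call ended with DMSO replicates 4 and 5 alone (-0.20, adjusted p = 0.256).

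**Figure D2:**
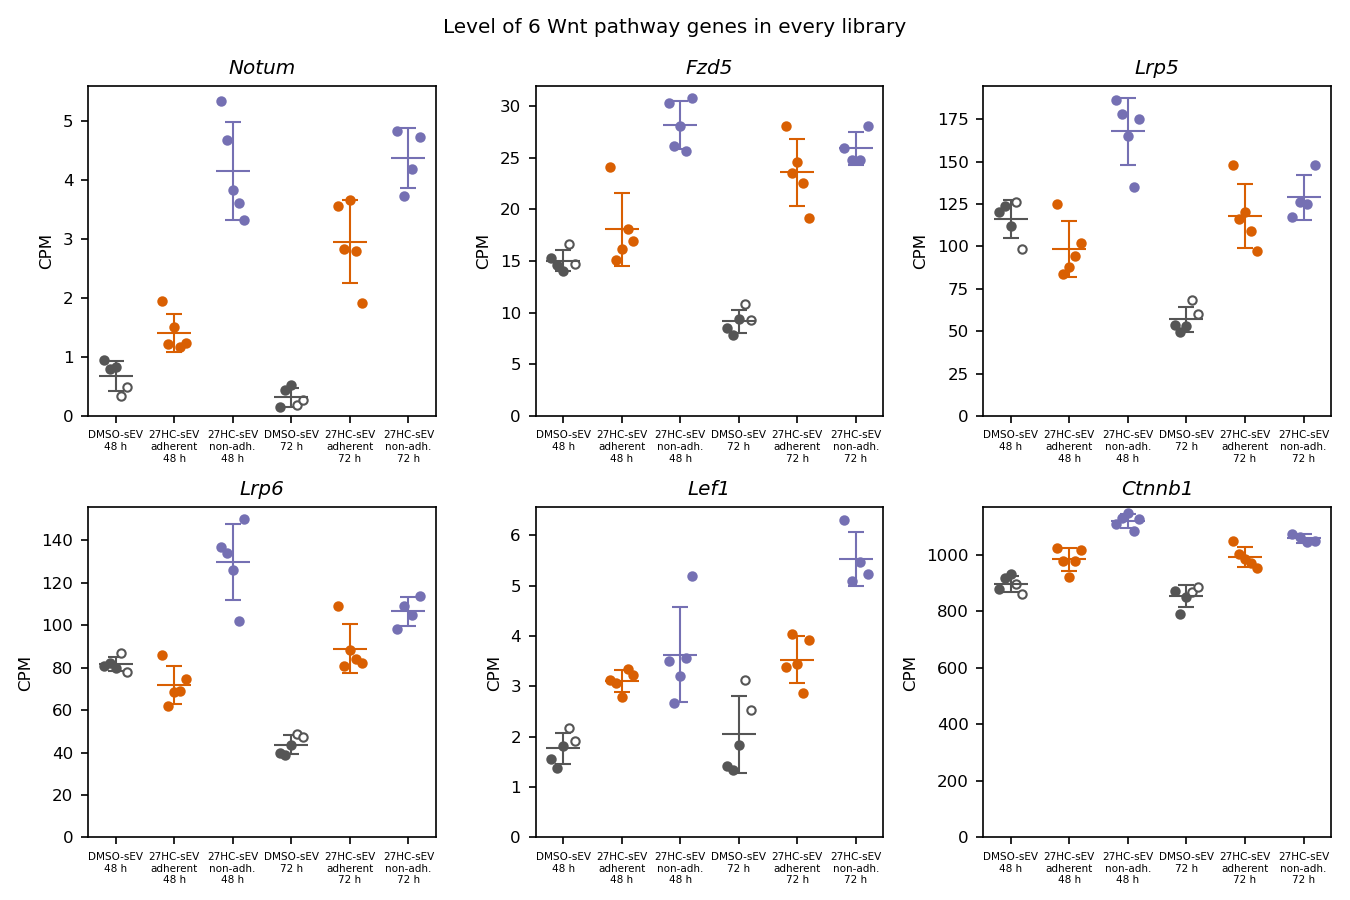
Level in CPM (y axis, a separate linear scale for each gene) of Notum, Fzd5, Lrp5, Lrp6, Lef1 and Ctnnb1 in every library of the 6 groups (x axis), with points for libraries, open points for DMSO-sEV replicates 4 and 5, bars for the mean and error bars for the SD. Notum lies between 0.157 and 0.526 CPM in DMSO-sEV cells at 72 h and at or above 1.91 CPM in every 27HC-sEV library of that time.

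Fzd5 (Entrez 14367), a Frizzled receptor, was the receptor with the largest rise. Under DMSO-sEVs at 48 h it had 15.3, 14.6, 14.0, 16.6 and 14.7 CPM, and in adherent 27HC-sEV cells 24.1, 15.1, 16.2, 18.1 and 16.9 CPM. The groups overlapped, and the log2 difference of 0.27 (SE 0.105, adjusted p = 0.0381) was lost in 9 of the alternatives, with adjusted p up to 0.231. Those included leaving out DMSO-sEV replicate 1, 3 or 5 or 27HC-sEV replicate 1 or 4. At 72 h DMSO-sEV cells had 8.5, 7.85, 9.36, 10.8 and 9.33 CPM and adherent 27HC-sEV cells 28.1, 23.5, 24.6, 22.6 and 19.2 CPM. All 27HC-sEV libraries lay above all DMSO-sEV libraries, by 2.57-fold (log2 fold change 1.36, SE 0.109, adjusted p = 1.53e-11). All 42 alternatives kept this call, with log2 values down to 0.94.

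Lrp5 (Entrez 16973), a Wnt co-receptor, had 120, 124, 112, 126 and 98.3 CPM under DMSO-sEVs and 125, 83.4, 87.9, 94.5 and 102 CPM in adherent 27HC-sEV cells at 48 h. These ranges overlapped and the difference was not called. At 72 h the values were 53.7, 49.2, 53.0, 68.2 and 60.3 CPM under DMSO-sEVs and 148, 116, 120, 109 and 97.0 CPM under 27HC-sEVs, with no overlap. Lrp5 thus had a log2 difference of 1.05 (SE 0.115, adjusted p = 7.05e-09), and it was 0.46 with the offsets, still past the threshold. Lrp6 (Entrez 16974), the other co-receptor, had 80.6, 82.4, 80.1, 87.0 and 78.1 CPM under DMSO-sEVs and 85.9, 61.9, 68.6, 68.9 and 74.9 CPM in adherent 27HC-sEV cells at 48 h, with 4 of the latter below all of the former and no call. At 72 h it had 39.8, 38.9, 43.7, 48.9 and 47.3 CPM under DMSO-sEVs and 109, 80.9, 88.3, 83.9 and 82.4 CPM under 27HC-sEVs, again without overlap. For Lrp6 the log2 fold change was 1.02 (SE 0.0948, adjusted p = 2.91e-10), or 0.69 with the offsets. Under DMSO-sEVs both co-receptors were lower at 72 h than at 48 h in every library.

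Of the 5 remaining receptors, Fzd1, Fzd2 and Fzd7 fell at 48 h, and Fzd6, Fzd7 and Ror1 rose at 72 h. Fzd2 fell at 48 h from 22.7 CPM (n = 5, SD 3.37) to 14.2 CPM (n = 5, SD 1.67), without overlap (log2 fold change -0.67, SE 0.0975, adjusted p = 1.73e-06). Fzd1 fell by 0.59 (SE 0.133, adjusted p = 0.000661) and Fzd7 by 0.31 (SE 0.106, adjusted p = 0.0191). The calls for Fzd1 and Fzd7 ended with DMSO replicates 4 and 5 alone (adjusted p = 0.0865 and 0.609), and that for Fzd7 also without DMSO-sEV replicate 1 or 2 or 27HC-sEV replicate 2 or 3. At 72 h Fzd7 rose by 0.56 (SE 0.108, adjusted p = 5.13e-05), Fzd6 by 0.31 (SE 0.0848, adjusted p = 0.00208) and Ror1, a receptor kinase for Wnt ligands outside the beta-catenin branch, by 0.71 (SE 0.148, adjusted p = 0.000143). Znrf3 and Rnf43, membrane ubiquitin ligases that remove Frizzled receptors from the cell surface, rose with them at 72 h. Znrf3 went from 15.7 CPM (n = 5, SD 0.753) to 25.3 CPM (n = 5, SD 2.91), a log2 difference of 0.69 (SE 0.0871, adjusted p = 8.75e-08), or 0.33 with the offsets. Rnf43 had a log2 difference of 0.49 (SE 0.158, adjusted p = 0.0083), which was 0.17 and no call with the offsets (adjusted p = 0.386).

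At the membrane, Dvl1 (Entrez 13542), a Dishevelled protein that carries the signal from Frizzled, rose at both times. It had 69.9 CPM (n = 5, SD 5.45) under DMSO-sEVs and 102 CPM (n = 5, SD 3.2) in adherent 27HC-sEV cells at 48 h, without overlap (log2 fold change 0.54, SE 0.0576, adjusted p = 9.41e-09). At 72 h the means were 75.2 CPM (n = 5, SD 4.56) and 127 CPM (n = 5, SD 6.77), with a log2 difference of 0.76 (SE 0.0576, adjusted p = 5.99e-12) that was 0.33 with the offsets. Dvl3 rose by 0.26 (SE 0.1, adjusted p = 0.035) at 48 h, a call lost in 8 alternatives with a value as low as 0.01 against DMSO replicates 4 and 5 alone, and by 0.52 (SE 0.101, adjusted p = 6.05e-05) at 72 h. The losses at 48 h included leaving out DMSO-sEV replicate 1, 2 or 3 or 27HC-sEV replicate 3 or 5. Dvl2 rose by 0.19 (SE 0.0536, adjusted p = 0.00507) at 48 h and had 0.11 at 72 h without a call. Nkd2, which binds Dishevelled and restrains it, ran from 1.17 to 1.93 CPM under DMSO-sEVs and from 1.46 to 2.27 CPM under 27HC-sEVs at 72 h. It was not called at either time against all 5 DMSO-sEV libraries. Against DMSO replicates 4 and 5 alone it was called higher at 72 h (0.70, adjusted p = 0.0104).

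Ctnnb1 rose slightly at both times. At 48 h it had 879, 920, 932, 898 and 863 CPM under DMSO-sEVs and 1026, 980, 921, 977 and 1016 CPM in adherent 27HC-sEV cells, where replicate 3 alone lay within the DMSO-sEV range. Its log2 fold change was 0.13 (SE 0.0421, adjusted p = 0.012), a call lost with no filter except 1 count (adjusted p = 0.097). At 72 h it had 874, 791, 851, 870 and 886 CPM under DMSO-sEVs and 1049, 1002, 985, 971 and 955 CPM under 27HC-sEVs, without overlap (1.16-fold, log2 fold change 0.22, SE 0.0421, adjusted p = 6.13e-05). Of its degradation complex, Apc, the scaffold whose loss stabilises beta-catenin, rose by 0.34 (SE 0.0878, adjusted p = 0.0014) at 72 h. That call ended with the offsets (0.02, adjusted p = 0.716) and with DMSO replicates 4 and 5 alone. Csnk1a1, the kinase that first phosphorylates beta-catenin, fell from 393 CPM (n = 5, SD 7.63) to 355 CPM (n = 5, SD 4.77), without overlap (-0.15, SE 0.0354, adjusted p = 0.000638). With the offsets its value was -0.02 (adjusted p = 0.66). The scaffold Axin1 (0.04) and the kinase Gsk3b (0.21) were not called at 72 h.

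Among the nuclear factors Lef1 (Entrez 16842), which binds beta-catenin on DNA, rose at both times. At 48 h it had 1.55, 1.38, 1.82, 2.18 and 1.91 CPM under DMSO-sEVs and 3.13, 3.06, 2.78, 3.35 and 3.23 CPM under 27HC-sEVs, with no overlap (log2 fold change 0.82, SE 0.19, adjusted p = 0.000832). At 72 h the DMSO-sEV replicates divided, with 1.41, 1.33 and 1.84 CPM in replicates 1 to 3 and 3.12 and 2.53 CPM in 4 and 5, against 3.38, 4.03, 3.44, 2.87 and 3.92 CPM under 27HC-sEVs. Replicate 4 of the DMSO-sEV cells lay within the 27HC-sEV range. Lef1 had a log2 difference of 0.75 (SE 0.184, adjusted p = 0.000812) against all 5, 1.21 against replicates 1 to 3, and 0.32 without a call against 4 and 5 (adjusted p = 0.152). Tcf7 and Tcf7l1, of the same factor family, were called at neither time. Tcf7l2, a further member of that family, was lower at 72 h by 0.29 (SE 0.121, adjusted p = 0.0366), a call lost in 10 alternatives with adjusted p up to 0.819. They included DMSO replicates 1 to 3 alone, and leaving out DMSO-sEV replicate 4 or 5 or 27HC-sEV replicate 3 or 4. Bcl9, which links beta-catenin to the transcription machinery, was higher by 0.27 (SE 0.118, adjusted p = 0.0471), a call kept in only 20 of 42 alternatives. Its value was -0.02 against DMSO replicates 4 and 5 alone and -0.12 with the offsets.

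**Figure D3:**
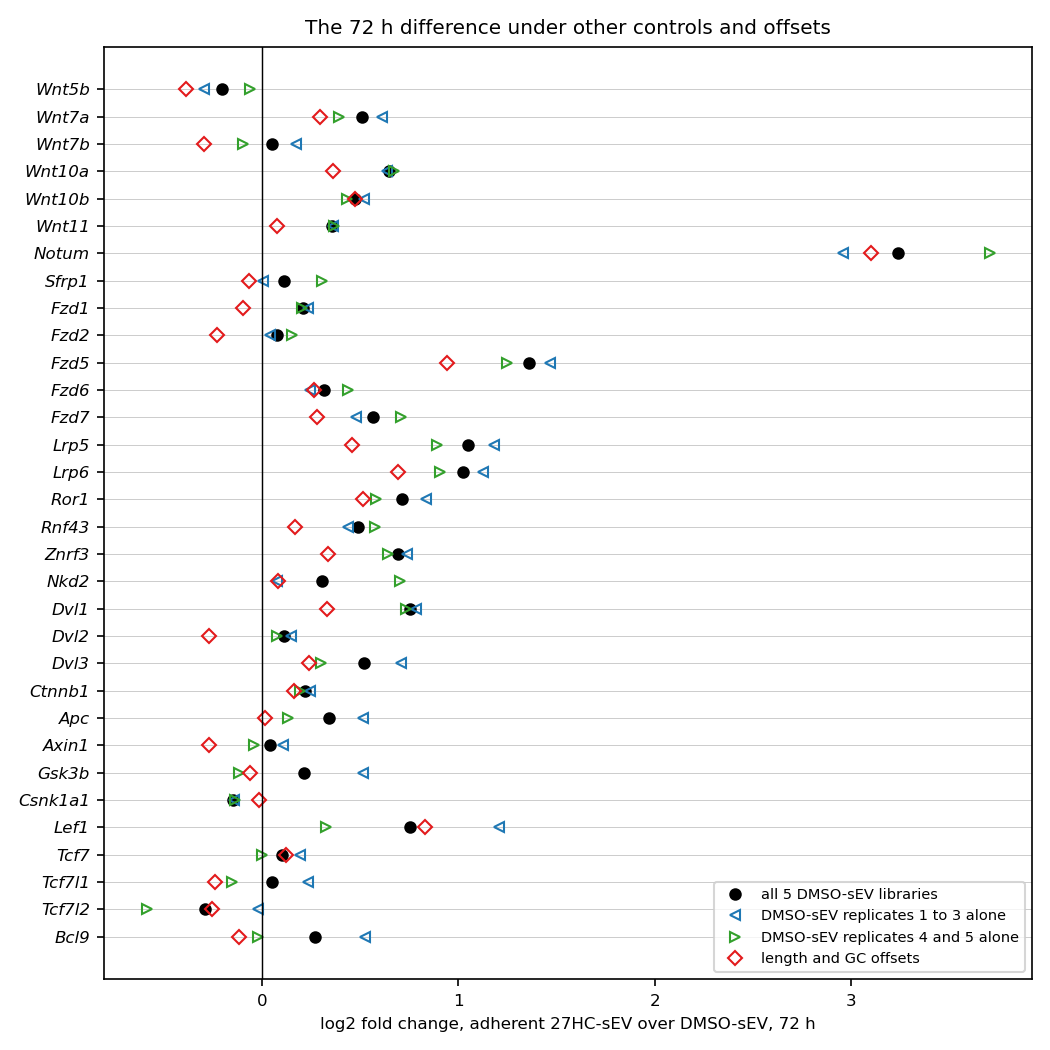
Log2 fold change (x axis) of the members (y axis) in adherent 27HC-sEV against DMSO-sEV cells at 72 h with all libraries, with DMSO-sEV replicates 1 to 3 alone, with replicates 4 and 5 alone, and with offsets for transcript length and GC content. Notum lies between 2.96 and 3.71 in all of them, while Bcl9 lies on both sides of 0.

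The response of attached cells differed between the times for many members. The difference itself (the 27HC-sEV minus DMSO-sEV log2 fold change at 72 h less that at 48 h) was above 0 past the threshold for 17 of 32 members and below 0 for 0, against 15.9% and 21.4% of all genes (37.3% in all). The median was 0.432 over members and -0.00402 over all genes. All 8 receptors were among the 17, as were both ubiquitin ligases, the ligands Wnt7a, Wnt7b and Wnt10a, and Notum, Sfrp1, Dvl1 and Apc. Notum had the largest difference (2.22, SE 0.401, adjusted p = 0.000105), then Lrp5 (1.28, SE 0.16, adjusted p = 8.78e-07) and Lrp6 (1.20, SE 0.133, adjusted p = 1.86e-07). With the offsets 12 members were above and 2 below 0, and Apc, Dvl1, Fzd1, Sfrp1 and Rnf43 were no longer called. With DMSO replicates 4 and 5 alone 13 were above and 0 below, without Fzd1, Sfrp1, Rnf43, Wnt10a and Ror1 and with Dvl3 added. Replicates 1 to 3 alone gave 18 above and 0 below, without Dvl1 and with Dvl3 and Gsk3b added.

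Time in each kind of cell shows where these differences arose. In DMSO-sEV cells 17 of 32 members were lower at 72 h than at 48 h and 0 were higher, against 23.8% and 27.8% of all genes (51.6% in all). The member median was -0.336 and that of all genes 0.00903. Lrp5 fell by 1.03 (SE 0.115, adjusted p = 6.24e-08), Lrp6 by 0.90 (SE 0.0949, adjusted p = 2.64e-08), Wnt10a by 0.85 (SE 0.109, adjusted p = 4.75e-07) and Fzd5 by 0.71 (SE 0.111, adjusted p = 9.01e-06). Notum fell by 1.16 (SE 0.343, adjusted p = 0.00598), although its ranges overlapped. With DMSO replicates 1 to 3 alone 20 members were lower and 0 higher, with Ctnnb1, Tcf7l1 and Gsk3b added. With DMSO replicates 4 and 5 alone 10 members were lower and 0 higher, without Fzd1, Sfrp1, Rnf43, Tcf7, Wnt7a, Ror1 and Notum. With the offsets 16 were lower and 4 higher. With the replicate number as a block all 17 kept their calls, Dvl3 (-0.19, adjusted p = 0.0303) and Tcf7l1 (-0.25, adjusted p = 0.0306) were also lower, and Dvl1 was higher (0.10, adjusted p = 0.0495). The DMSO-sEV cells at 72 h enter both the time comparison and the comparison with 27HC-sEV cells, so these are not independent.

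In adherent 27HC-sEV cells 4 members were higher at 72 h than at 48 h and 0 lower, against 6.58% and 6.54% of all genes (13.1% in all). They were Notum (1.06, SE 0.211, adjusted p = 0.000794), Fzd5 (0.39, SE 0.103, adjusted p = 0.0113), Dvl1 (0.32, SE 0.057, adjusted p = 0.00021) and Lrp6 (0.30, SE 0.0929, adjusted p = 0.0278). With the offsets, and with DMSO replicates 4 and 5 alone, 4 were higher and 1 lower. In non-adherent cells Lef1 (0.61, SE 0.175, adjusted p = 0.0204) and Dvl1 (0.31, SE 0.0601, adjusted p = 0.000749) were higher at 72 h, and Wnt7b, Fzd2, Fzd6, Lrp5 and Znrf3 were lower by 0.26 to 0.38, against 5.7% higher and 6.91% lower of all genes (12.6% in all). The number of these 7 calls changed with the libraries that were fitted. The count was 3 without replicate 2 at 48 h or replicate 1 at 72 h, and 4 without replicate 1, 3 or 5 at 48 h or replicate 3 at 72 h. It was 2 higher and 10 lower in a fit of these groups alone, and 2 and 9 with DMSO replicates 1 to 3 alone.

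**Figure D4:**
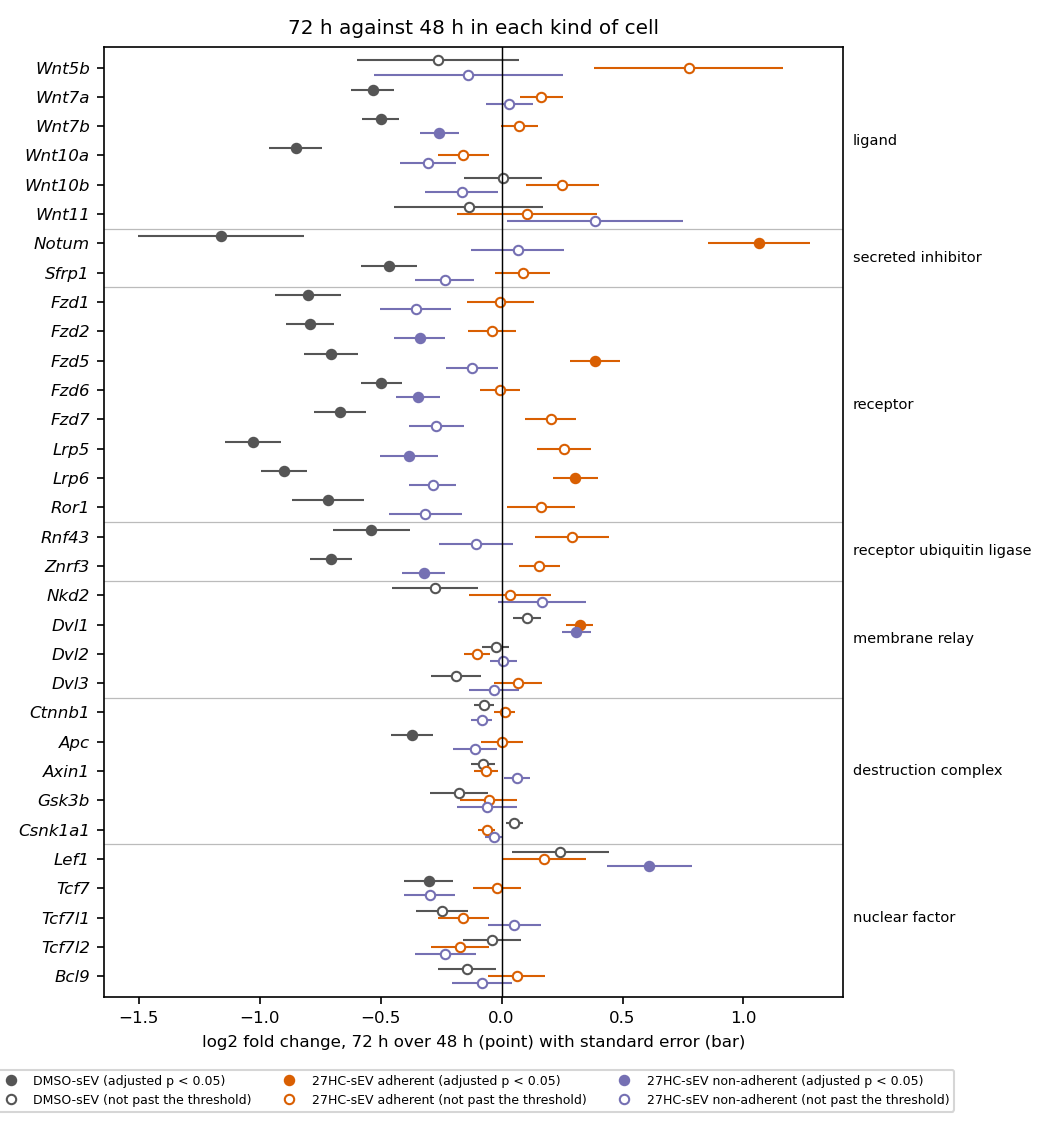
Log2 fold change of 72 h against 48 h (x axis) for each member (y axis) in DMSO-sEV, adherent 27HC-sEV and non-adherent 27HC-sEV cells, with bars for the standard error and filled points for adjusted p under 0.05. In DMSO-sEV cells 17 members lie below 0 and pass, in adherent 27HC-sEV cells 4 lie above 0 and pass, and in non-adherent cells 2 lie above and 5 below.

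Non-adherent 27HC-sEV cells were set against adherent 27HC-sEV cells to ask what went with the loss of attachment, and the labels do not say whether both fractions came from the same cultures. At 48 h Notum, both co-receptors, Fzd5 and both ubiquitin ligases were higher in non-adherent cells, while the ligands Wnt7a, Wnt10a and Wnt11 were lower. In all 18 members rose and 4 fell, against 25.7% and 28.4% of all genes (54.1% in all), with a member median of 0.303 and 0.00394 over all genes. At 72 h 11 members were higher and 2 lower, against 14.7% and 12.8% of all genes (27.5% in all), with medians of 0.129 and 0.00252. With the offsets the splits were 13 and 5 at 48 h and 5 and 2 at 72 h. The offsets lowered the 48 h log2 values of Lrp5 to 0.30, Lrp6 to 0.52, Fzd5 to 0.30, Fzd7 to 0.26, Znrf3 to 0.24, Rnf43 to 0.39 and Wnt7b to 0.22, all still past the threshold, and Notum stood at 1.51. With no filter except 1 count the split at 72 h was 3 and 2. The 72 h count of 13 was 7 without adherent replicate 2 or non-adherent replicate 3, and 8 without adherent replicate 3 or 5 or non-adherent replicate 1 or 4.

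Notum had 5.33, 4.67, 3.83, 3.61 and 3.32 CPM in non-adherent cells at 48 h, all above the 1.17 to 1.94 CPM of adherent cells. The difference was 2.94-fold (log2 fold change 1.55, SE 0.205, adjusted p = 8.43e-07). At 72 h the 4 non-adherent libraries had 4.82, 3.73, 4.18 and 4.73 CPM against at most 3.66 CPM in adherent cells. The groups just separated, and the 1.47-fold difference (log2 fold change 0.56, SE 0.199, adjusted p = 0.0392) was lost in 8 alternatives with adjusted p up to 0.103. Among them were leaving out adherent replicate 2, 4 or 5 or non-adherent replicate 1, 3 or 4. Fzd5 had 30.3, 26.1, 28.1, 25.7 and 30.8 CPM in non-adherent cells at 48 h, above all adherent libraries (0.64, SE 0.102, adjusted p = 1.39e-05), and 25.9, 24.8, 24.8 and 28.1 CPM at 72 h, where the ranges overlapped and no call was made.

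Lrp5 had 186, 178, 165, 135 and 175 CPM in non-adherent cells at 48 h, above all adherent libraries (log2 fold change 0.77, SE 0.113, adjusted p = 4.03e-06). At 72 h it had 117, 126, 125 and 148 CPM, overlapping the adherent range and without a call. Lrp6 had 137, 134, 126, 102 and 150 CPM in non-adherent cells at 48 h, again above all adherent libraries (log2 fold change 0.85, SE 0.093, adjusted p = 3.63e-08). At 72 h its 98.1, 109, 105 and 114 CPM overlapped the adherent range, and the call (0.26, SE 0.0978, adjusted p = 0.0492) was lost in 23 of 42 alternatives. Ctnnb1 had 1108, 1132, 1150, 1086 and 1129 CPM in non-adherent cells at 48 h, all above adherent cells (0.19, SE 0.0421, adjusted p = 0.000596). At 72 h it had 1075, 1065, 1045 and 1048 CPM, a difference of 0.09 (SE 0.0446) that did not pass (adjusted p = 0.111). Rnf43 (0.63, SE 0.15, adjusted p = 0.000935) and Znrf3 (0.51, SE 0.0842, adjusted p = 1.93e-05) were higher at 48 h and had no call at 72 h.

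Of the 6 ligands, 2 were higher and 3 lower in non-adherent cells at 48 h, and 0 were higher and 2 lower at 72 h. Wnt7a was lower in non-adherent cells at both times, at 33.6 CPM (n = 5, SD 2.92) against 49.4 CPM (n = 5, SD 4.97) at 48 h and 34.4 CPM (n = 4, SD 3.55) against 55.3 CPM (n = 5, SD 6.45) at 72 h. Neither pair overlapped, and the log2 fold changes were -0.56 (SE 0.0897, adjusted p = 1.54e-05) and -0.69 (SE 0.096, adjusted p = 1.47e-05). Wnt10a followed with -0.40 (SE 0.105, adjusted p = 0.0024) and -0.55 (SE 0.116, adjusted p = 0.00183), also without overlap. Wnt11 was lower at 48 h (-0.95, SE 0.32, adjusted p = 0.0136), on 4 to 29 reads per library, a call that ended without adherent replicate 3 (adjusted p = 0.0639). Wnt7b (0.47, SE 0.0761, adjusted p = 1.56e-05) and Wnt10b (0.61, SE 0.146, adjusted p = 0.00104) were higher at 48 h and not called at 72 h.

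Among relay and nuclear genes, Lef1 had 3.5, 2.66, 3.21, 3.57 and 5.19 CPM in non-adherent cells at 48 h, which overlapped adherent cells and was not called. At 72 h its 6.3, 5.09, 5.46 and 5.24 CPM lay above all adherent libraries (1.57-fold, log2 fold change 0.65, SE 0.176, adjusted p = 0.0104). Bcl9 was higher at 48 h (0.62, SE 0.117, adjusted p = 9.55e-05) and 72 h (0.48, SE 0.123, adjusted p = 0.00752), and Tcf7l2 likewise (0.50, SE 0.119, adjusted p = 0.00107, and 0.43, SE 0.127, adjusted p = 0.016), all without overlap. With the offsets Bcl9 had 0.29 and 0.28, still past the threshold. Dvl1 was higher by 0.23 and 0.22, but with the offsets its values were -0.09 and 0.01. Axin1 and Dvl2, higher at 72 h by 0.16 and 0.19, lost that call with the offsets and were called lower at 48 h under them. Csnk1a1 was lower at 48 h (-0.11, SE 0.0354, adjusted p = 0.00994), and -0.0032 with the offsets.

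**Figure D5:**
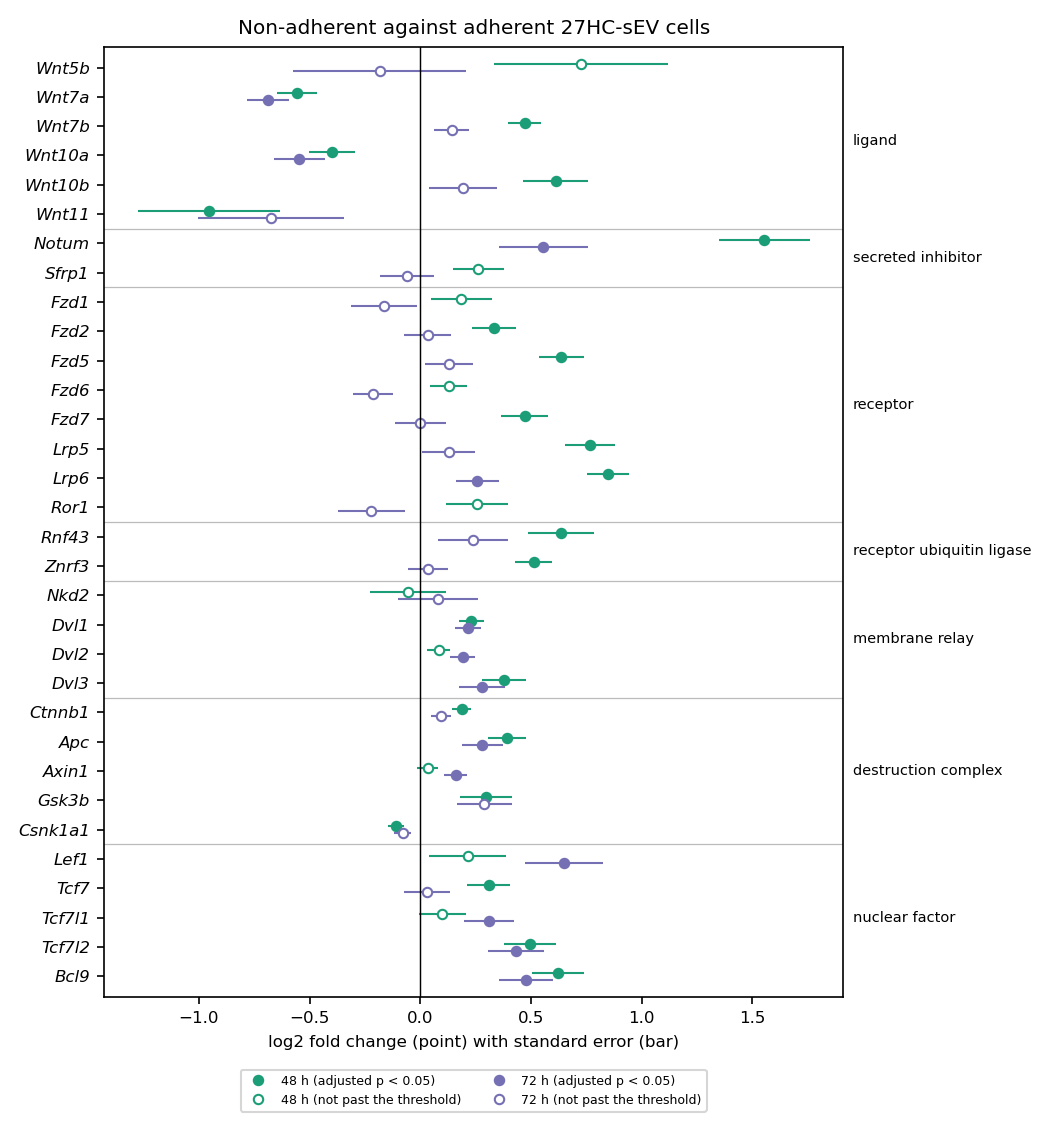
Log2 fold change (x axis) of each member (y axis, grouped by role) in non-adherent against adherent 27HC-sEV cells at 48 and 72 h, with bars for the standard error and filled points for adjusted p under 0.05. Notum lies farthest to the right at 48 h, at 1.55, and Wnt7a and Wnt10a lie to the left of 0 at both times.

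The step between non-adherent and adherent cells differed between times for 5 members, all of them smaller at 72 h, against 1.18% of all genes above 0 and 3.41% below (4.6% in all). They were Notum (-0.998, SE 0.287, adjusted p = 0.0417), Lrp5 (-0.64, SE 0.164, adjusted p = 0.0203), Lrp6 (-0.59, SE 0.135, adjusted p = 0.00907), Fzd5 (-0.51, SE 0.148, adjusted p = 0.0449) and Znrf3 (-0.48, SE 0.123, adjusted p = 0.021). With the offsets 1 member was above and 6 below 0. The count fell to 1 without adherent or non-adherent replicate 1 at 72 h. It fell to 3 without adherent replicate 2, 3, 4 or 5 or non-adherent replicate 1, 2 or 3 at 48 h, and without adherent replicate 2, 3 or 4 or non-adherent replicate 2 or 3 at 72 h. It was 8 without non-adherent replicate 4 at 48 h.

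Set against DMSO-sEV cells, non-adherent cells had 15 members higher and 6 lower at 48 h, against 33.2% and 33.4% of all genes (66.5% in all), and 20 higher and 1 lower at 72 h, against 38.3% and 36.2% (74.5% in all). These comparisons share their libraries with those above. No non-adherent DMSO-sEV cells were sampled, so the vesicles and the loss of attachment cannot be told apart in them. At 72 h the log2 fold change was 3.80 for Notum (SE 0.277, adjusted p = 1.5e-12), 1.49 for Fzd5, 1.40 for Lef1, 1.28 for Lrp6 and 1.18 for Lrp5. The member that was lower at 72 h was Csnk1a1 (-0.23, SE 0.0377, adjusted p = 5.05e-06). With the offsets the splits were 10 and 8 at 48 h and 10 and 7 at 72 h, where Wnt7b, Axin1 and Dvl2 turned from higher to lower. With DMSO replicates 4 and 5 alone the split was 16 and 2 at 48 h and 17 and 2 at 72 h. At 72 h Wnt7b, Ror1, Axin1 and Tcf7l1 were then no longer called, Nkd2 was called higher and Wnt7a lower.

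Members whose groups did not overlap were counted too, with the shares of all genes taken over both directions. In adherent against DMSO-sEV cells 3 members lay wholly higher and 2 wholly lower at 48 h. There 30.5% of all genes did not overlap, a larger share than among the members. At 72 h 12 lay wholly higher and 1 wholly lower, where 43.3% of all genes did not overlap. In non-adherent against adherent cells 14 lay wholly higher and 3 wholly lower at 48 h (42.3% of all genes), and 10 and 3 at 72 h (34.3% of all genes). Calls of at least 2-fold numbered 2 members at 48 h (5.1% of all genes) and 4 at 72 h (9.97%) in the former pair, and 1 (3.67%) and 0 (1.41%) in the latter.

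Pathway genes outside the members leaned the same way at 72 h, in a list chosen with earlier results of these data known. Their counts come only from the edgeR fit of all libraries without offsets. Of 61 tested, 38 rose and 9 fell in adherent 27HC-sEV against DMSO-sEV cells (median 0.293), where 32.0% and 33.4% of all genes did. At 48 h 15 rose and 17 fell (median -0.04), near the 21.3% and 22.7% of all genes. In non-adherent against adherent cells 31 rose and 8 fell at 48 h (25.7% and 28.4% of all genes), and 19 and 5 at 72 h (14.7% and 12.8%). Among common target genes Ccn4, a matricellular protein named for induction by Wnt1, fell against that lean at both times. It went from 87.3 CPM (n = 5, SD 4.72) to 18.0 CPM (n = 5, SD 1.68) at 48 h, down 4.83-fold (adjusted p = 5.45e-18), and from 49.7 CPM (n = 5, SD 9.05) to 13.4 CPM (n = 5, SD 1.19) at 72 h, down 3.7-fold (adjusted p = 5.4e-16). It was lower again in non-adherent than in adherent cells at 48 h (-0.77) and 72 h (-0.84). Prickle1, a planar polarity gene that also stands in the target list, rose from 7.6 CPM (n = 5, SD 1.88) to 26.1 CPM (n = 5, SD 1.39) at 72 h (3.4-fold, adjusted p = 6.98e-12). At 48 h Prickle1 rose 3.29-fold (adjusted p = 4.39e-11). The transcription factor Sox9 rose by 0.72 (SE 0.0827, adjusted p = 3.46e-08) at 48 h and by 0.75 (SE 0.0827, adjusted p = 8.02e-09) at 72 h. Neither of these rises was called different between the times.

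Other receptors and ligand-handling genes were as follows. Lgr6, a receptor for R-spondins, which strengthen Wnt signals, rose at 72 h from 16.9 CPM (n = 5, SD 1.64) to 32.9 CPM (n = 5, SD 3.29), with adjusted p = 3.53e-09. In non-adherent cells at 48 h it reached 68.5 CPM (n = 5, SD 10.9) against 26.3 CPM (n = 5, SD 2.34) in adherent cells, 2.6-fold (adjusted p = 1.39e-11). Its relative Lgr4 rose by 0.53 at 72 h, as did the receptors Fzd4 (0.60) and Fzd3 (0.50) and the co-receptor Ptk7 (0.80). Fzd4 was lower by 0.57 at 48 h (adjusted p = 0.00504). Porcn, which attaches the lipid to Wnt proteins, was lower by 0.59 at 48 h and higher by 0.52 at 72 h. Wls, which carries Wnt proteins to the surface, was higher at both times, by 0.36 at 48 h and 0.29 at 72 h. The planar polarity cadherins Celsr2 (1.37, SE 0.145, adjusted p = 3.76e-09) and Celsr1 (1.01, SE 0.151, adjusted p = 1.43e-06) rose at 72 h. Celsr1 was lower by 0.37 at 48 h (adjusted p = 0.0352). In the intracellular relay Dact2, which binds Dishevelled, rose 2.06-fold at 48 h and 2.25-fold at 72 h, and Frat2, which binds GSK3, 3.45-fold and 1.79-fold. The casein kinase Csnk1g2 fell by 0.51 at 48 h and by 0.30 at 72 h. Apc2, a relative of Apc, rose at 72 h by 1.03 (SE 0.18, adjusted p = 1.31e-05). The tankyrase Tnks, which marks AXIN for degradation, rose by 0.36 at 48 h and 0.57 at 72 h. Amer1, which binds APC, rose by 0.12 at 48 h and 0.30 at 72 h. Of nuclear cofactors the corepressor Tle2 rose by 0.63 at 48 h and 0.95 at 72 h. Bcl9l (0.42), a relative of Bcl9, rose at 72 h, and Cby1, which binds beta-catenin and opposes it, fell by 0.80 (SE 0.126, adjusted p = 3.17e-06).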

How the data were processed

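The submitters deposited gene-level estimated counts, unscaled reads with a symbol and an Entrez identifier, and a table of TMM-normalized log2 CPM for 13087 genes, per the file headers. The submitters' processing notes name Salmon 1.10.0 and, as builds, mm39 and GRCm39, and the step from transcripts to genes is not given in the sources used here. Polyadenylated RNA was sequenced, per the labels' protocols. The non-adherent replicate 5 of 72 h is not used here, since the labels say that the authors took it out as an outlier. Of the estimated counts 40.79% were not whole, at a tolerance of 1e-06.

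Counts were rounded and filtered with edgeR's filterByExpr (minimum count 10, minimum total 15), which left 13008 of 39253 genes, and 16561 were 0 in every library. TMM factors scaled all libraries, and all 6 groups entered 1 quasi-likelihood fit (glmQLFit, robust; glmQLFTest, two-sided). A Benjamini-Hochberg adjustment ran over the 13008 genes, and 0.05 was the threshold. As standard error stands the absolute log2 fold change over the square root of F. CPM uses the TMM factors, and groups were called non-overlapping on log2 CPM with a prior count of 2. The tools were DESeq2 1.42.0, limma 3.58.1 and edgeR 4.0.16 under R 4.3.3, and the scripts were tested on simulated data. The labels do not say whether replicates were separate cultures or vesicle batches, so p-values speak only for library-to-library spread, which can be technical. Strand of counting is not given, so overlapping genes may share reads.

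Same-numbered DMSO-sEV libraries of 48 and 72 h deviated together from their group means, with correlations of 0.12 to 0.66 (median 0.49) in the 5 pairs. The labels give no pairing, and differently numbered libraries of these groups were not looked at separately. Replicates 1 to 3 also stood apart from 4 and 5 at both times, and the part of this split in the correlations was not tested. The 32 members and the wider pathway lists were chosen with earlier results of these data known. Values per library are given for members called with an absolute log2 difference of at least 1 in adherent against DMSO-sEV or non-adherent against adherent cells, and for Ctnnb1. Lef1 was added after its values were seen. Pathway genes outside the members are, per role list, up to 3 with the largest called change in adherent against DMSO-sEV cells at 72 h and a mean log2 CPM of at least 1. The remaining members appear by group values, ranges or counts. The other settings were counts left unrounded, upper-quartile or RLE factors, limma-voom or DESeq2 in place of edgeR, limma-trend with the authors' log2 CPM, a filter of 1 CPM, no filter except 1 count, a replicate block, only the groups compared, DMSO-sEV replicates 1 to 3 or 4 and 5 alone, leaving out each of 29 libraries, and length and GC offsets. The offsets are per-library natural splines (4 degrees of freedom) fitted to 10637 genes whose mean log2 CPM reached 1. For each symbol the longest transcript of GENCODE M21 gave length and GC, matched for 12225 of the tested genes (93.98%) and all 32 members, on an earlier build than the deposited counts. Promoter sequences and coordinates are RefSeq's on GRCm38.p6.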

Additional observations from a re-analysis of the deposited data

Results flagged for a closer look

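Levels of single libraries stood apart from the others of their group, by the ratio of the gap to the range, in 9 of 192 combinations of member and group; chance flags about 1 in 20. Tcf7 was high in DMSO-sEV replicate 5 at 48 h (13.4 CPM, others 9.98 to 10.7), low in DMSO-sEV replicate 2 at 72 h (6.68 CPM, others 9.1 to 10.2) and high in adherent 27HC-sEV replicate 1 at 72 h (11.6 CPM, others 8.86 to 9.43). Tcf7l2 was low in adherent 27HC-sEV replicate 3 at 72 h (14.6 CPM, others 16.5 to 16.7). Nkd2 was low in adherent 27HC-sEV replicate 3 at 48 h (1.33 CPM, others 1.87 to 2.1). DMSO-sEV replicate 5 at 48 h was also low for Fzd1 (4.16 CPM, others 5.49 to 6.06) and Fzd2 (16.9 CPM, others 23.0 to 25.6). Wnt5b was low in non-adherent replicate 4 at 72 h (0.0504 CPM, others 0.394 to 0.463), and Ror1 high in adherent 27HC-sEV replicate 4 at 48 h (3.91 CPM, others 2.79 to 3.07).

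The log2 difference of adherent 27HC-sEV against DMSO-sEV cells differed between times, tested as an interaction in the edgeR fit, for 17 members. The difference, 72 h less 48 h, was 2.22 for Notum, 1.28 for Lrp5, 1.20 for Lrp6, 1.09 for Fzd5, 0.88 for Ror1, 0.87 for Fzd7, 0.86 for Znrf3 and 0.83 for Rnf43. It was 0.80 for Fzd1, 0.75 for Fzd2, 0.70 for Wnt7a, 0.69 for Wnt10a, 0.57 for Wnt7b, 0.55 for Sfrp1, 0.49 for Fzd6, 0.37 for Apc and 0.22 for Dvl1. Adjusted p ran from 1.86e-07 for Lrp6 to 0.0353 for Dvl1. For non-adherent against adherent cells the difference was -0.998 for Notum, -0.64 for Lrp5, -0.59 for Lrp6, -0.51 for Fzd5 and -0.48 for Znrf3, with adjusted p from 0.00907 to 0.0449.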

How the results depend on the processing

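Single members had 5365 alternative values over the 4 comparisons of adherent with DMSO-sEV and of non-adherent with adherent cells. Of these 5128 kept their side of the threshold, 159 lost the call and 68 gained one without a change of direction, and 10 turned. A turn was counted only where the main or the alternative value was called, so uncalled values among the 5128 may have changed sign. Some of the 10 that turned also lost the call. With length and GC offsets the values that turned at 72 h in adherent against DMSO-sEV cells were Tcf7l1 (-0.24), Fzd2 (-0.23), Wnt7b (-0.30), Bcl9 (-0.12), Axin1 (-0.27) and Dvl2 (-0.27), and at 48 h in non-adherent against adherent cells Axin1 (-0.20), Dvl1 (-0.093) and Dvl2 (-0.22). Bcl9 also turned with DMSO-sEV replicates 4 and 5 alone (-0.020). The cause was not tested. Of the member counts, the 13 calls between non-adherent and adherent cells at 72 h became 5 with no filter except 1 count and 7 with the offsets. The 17 calls between times in DMSO-sEV cells became 10 with replicates 4 and 5 alone, and the 7 in non-adherent cells became 12 when only the groups compared were fitted and 11 with DMSO-sEV replicates 1 to 3 alone. The 5 differences between times in the step to non-adherent cells became 8 in each of these 3 settings. The cause was not tested, and without a filter more genes enter the adjustment.

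Leaving out each library gave 10 to 17 calls in adherent against DMSO-sEV cells at 48 h and 18 to 21 at 72 h, 20 to 23 in non-adherent against adherent cells at 48 h and 7 to 14 at 72 h, and 20 to 22 in non-adherent against DMSO-sEV cells at both times. Between times it gave 16 to 20 in DMSO-sEV, 3 to 6 in adherent and 3 to 9 in non-adherent cells, and 16 to 18 and 1 to 8 for the differences of the steps.

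Over 10922 genes, same-numbered replicates of different groups had correlations from -0.41 to 0.66 (median 0.074) and others from -0.68 to 0.63 (median -0.017), and 10 of 29 libraries correlated best with their own number. Outside the DMSO-sEV cells at 48 and 72 h, each pair of groups compared held a same-number correlation under 0.1, so the numbers were not taken to pair those samples. With a replicate block the split was 7 and 7 at 48 h and 19 and 2 at 72 h in adherent against DMSO-sEV cells, and 19 and 4 and 12 and 3 in non-adherent against adherent cells. It was 15 and 6 and 20 and 1 in non-adherent against DMSO-sEV cells, and 1 and 19, 4 and 0, and 2 and 6 between times in DMSO-sEV, adherent and non-adherent cells. Under the replicate block the steps differed between times for 18 and 7 members. Over all genes the block gave 2765 and 2738 calls in non-adherent against adherent cells at 72 h, against 1915 and 1662 without it. Depth limits Wnt5b, Wnt11 and Notum most.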
